A study of Mus musculus with 112 samples.

Results

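Complex III, the ubiquinol-cytochrome c reductase of the inner mitochondrial membrane, was followed through 8 of its nuclear-encoded subunits in mouse mammary tumours. The genes are Uqcr10, Uqcrc1, Uqcrc2, Uqcrfs1, Uqcrb, Uqcrh, Uqcrq and Cyc1. These 8 of the 18193 genes named on the arrays were represented by 16 probe sets, 15 on the Affymetrix array MOE430A and 1 on MOE430B, of 45137 probe sets in all. A probe set was taken where its only gene symbol in the platform annotation was one of the 8. Uqcr10 was selected on these same data, because one of its probe sets led the comparison among sublines on MOE430A, so its levels are given as a description with no test. The other subunits were added as its partners in the complex.

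The tumours arose in mice labelled AKXD x PyMT. The AKXD set of recombinant inbred lines goes back to a cross of AKR/J with DBA/2J mice, so each subline carries its own fixed mixture of the 2 parental genomes. PyMT is the polyoma middle T antigen, an oncogene that was expressed in all groups from the mouse mammary tumour virus promoter (MMTV-PyMT), which is active mainly in mammary epithelium. The groups were 18 sublines with 3 or 4 tumours each, and none was a control. Read as a cross, the label AKXD x PyMT means that the tumour-bearing mice also carried genome of a PyMT parent. The labels gave no strain of that parent, no treatment and no age. Tumours of a subline were labelled as biological replicates, each with its own animal number.

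Of the 56 arrays of each type, 52 on MOE430A from 17 sublines and 53 on MOE430B from 18 sublines were kept. The other arrays had a median correlation with the rest under 0.95, and on MOE430A they were all 3 arrays of subline 23 and tumour 3 of subline 25. The kept arrays had a median correlation of 0.988 on both types, and no pair held identical values. Values are log2 expression from robust multi-array average (RMA), so that a difference of 1 is a doubling. On kept arrays Krt8 ran from 11.60 to 12.94 and Epcam, an epithelial adhesion molecule, from 12.32 to 13.35, so both were bright in every tumour. Of the same 12 epithelial markers, Csn2, a milk protein, ran from 5.93 to 14.01, and the score of the list ran from -0.99 to 0.39. The tissue was not pure epithelium. Acta1, the skeletal muscle actin, ran from 6.25 to 13.80, and Adipoq, an adipocyte hormone, from 5.34 to 11.40. In such bulk samples fewer cells of a type and less RNA per cell cannot be told apart.

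Complex III takes electrons from ubiquinol and passes them to cytochrome c, while it moves protons across the inner membrane. The catalytic centres sit in cytochrome b, which is encoded in mitochondrial DNA, in cytochrome c1 (Cyc1) and in the Rieske iron-sulphur protein (Uqcrfs1). Uqcrc1 and Uqcrc2 are the large core proteins on the matrix side. Uqcrb, Uqcrq, Uqcrh and Uqcr10 are small accessory subunits, of which Uqcrh, the hinge protein, lies near cytochrome c1.

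The 8 genes are spread over 6 chromosomes in RefSeq GRCm38.p6. Uqcr10 lies at chr11:4701968-4704344 and Uqcrq 48.7 Mb further along the same chromosome at chr11:53427922-53430831. Uqcrfs1 and Uqcrb are both on chromosome 13, Uqcrh is on chromosome 4, Uqcrc2 on 7, Uqcrc1 on 9 and Cyc1 on 15. Upstream sequence was found for 4 of the 8, Uqcr10, Uqcrc1, Uqcrfs1 and Uqcrh. The 250 bases before the annotated start are shown for Uqcr10 and Uqcrc1, which differed most among sublines on MOE430A, and for Uqcrh, which held the most motif matches (RefSeq, GRCm38.p6, each read 5′ to 3′ on the strand of the gene). Capitals mark the motifs found.
Uqcr10, chr11:4704345-4704594, minus strand: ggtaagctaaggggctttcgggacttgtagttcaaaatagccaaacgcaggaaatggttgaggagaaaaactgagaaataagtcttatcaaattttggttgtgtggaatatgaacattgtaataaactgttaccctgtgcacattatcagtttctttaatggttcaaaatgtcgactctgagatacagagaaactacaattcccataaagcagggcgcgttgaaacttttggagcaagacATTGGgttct
Uqcrc1, chr9:108936398-108936647, plus strand: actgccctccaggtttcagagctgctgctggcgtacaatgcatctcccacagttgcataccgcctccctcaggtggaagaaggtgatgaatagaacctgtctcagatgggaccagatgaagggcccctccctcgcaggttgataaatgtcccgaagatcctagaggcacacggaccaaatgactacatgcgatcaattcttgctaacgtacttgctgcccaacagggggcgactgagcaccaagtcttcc
Uqcrh, chr4:116075071-116075320, minus strand: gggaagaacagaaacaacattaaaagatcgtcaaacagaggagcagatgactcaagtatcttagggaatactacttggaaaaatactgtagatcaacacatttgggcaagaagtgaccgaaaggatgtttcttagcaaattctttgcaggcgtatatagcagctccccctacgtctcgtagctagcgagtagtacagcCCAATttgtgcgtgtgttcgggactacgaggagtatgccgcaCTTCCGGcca

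The windows were searched on both strands for exact letters of motifs named for factors of mitochondrial genes and for common promoter elements. They were GCGCATGCG for NRF1, CCGGAAG for GABPA, AAGATGGCG for YY1, GGGCGGG for SP1 and CCAAT for the CCAAT box. In Uqcr10 the CCAAT box was read on the opposite strand, as ATTGG, 10 to 6 bases before the start. In Uqcrh the CCAAT box lay 52 to 48 bases before the start and the GABPA letters, as CTTCCGG, 10 to 4 bases before it. No letters of these 5 motifs were in the windows of Uqcrc1 and Uqcrfs1. Among all 27025 upstream windows of this length 34.5% held CCAAT, 23.6% the SP1 letters, 7.05% the GABPA letters, 1.49% the NRF1 letters and 0.607% the YY1 letters. These matches describe the letters and are not sites shown to be bound.

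Uqcr10 was read by 3 probe sets that did not give one picture. The probe set 1434340_at had a mean of 7.48 over all tumours, under the median of every array (7.78 to 7.93). It split the tumours in 2 levels, of which the upper averaged 7.99. The probe set 1434341_x_at, designed from the same expressed sequence tag, followed it with a smaller spread around a mean of 8.70. The brightest, 1424364_a_at, designed from another transcript sequence, had a mean of 11.48 and most of its variance lay within sublines.

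On 1434340_at the subline means ran from 8.09 in subline 24 down to 6.93 in subline 18, a range of 1.16 or 2.24-fold. The 3 tumours of subline 24 read 8.04, 8.06 and 8.16, against 7.01, 6.83 and 6.94 in subline 18. Subline 28 read 8.03, 8.21 and 7.97, subline 14 read 8.15, 7.88 and 8.05, and subline 11 read 7.98, 7.98 and 7.86. All of these tumours lay above those of subline 18. Subline 13 read 7.95, 7.87 and 7.99, subline 10 read 7.86, 8.09 and 7.85, and subline 20 was more scattered at 8.27, 7.72 and 7.62. The tumours of subline 27 were divided, at 8.18, 7.99 and 7.31. These 8 sublines had the highest means.

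The other 9 sublines had lower means, close to one another. Below subline 27 came subline 16 with 7.01, 7.36 and 7.20, subline 2 with 7.22, 7.01, 7.26 and 7.11, and subline 25 with 7.19, 7.02 and 7.08. Subline 22 read 7.15, 7.12 and 6.96, subline 21 read 7.17, 6.84 and 7.19, and subline 3 read 7.09, 7.01 and 6.98. Subline 7 read 6.88, 7.11 and 6.98, and subline 9 read 6.80, 7.13 and 7.00. No neighbours within this lower run differed by more than the larger of their SDs, and neither did any neighbours within the upper run. The single step beyond that spread was between subline 27 (7.83 ± 0.46, SD, n = 3) and subline 16 (7.19 ± 0.17, n = 3), and even there the ranges overlapped because of tumour 3 of subline 27.

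Sorted by value, the 52 tumours had their widest gap between 7.62 and 7.36. The gap was 0.26 wide, and the next widest was 0.13. Above it lay 23 tumours at 7.99 ± 0.16 and below it 29 tumours at 7.07 ± 0.14 (SD). All tumours of 7 sublines were above the gap, all tumours of 9 sublines were below it, and subline 27 had tumours on both sides. The share of the variance between sublines, given as the intraclass correlation, was 0.87. In the arrays that were left out, subline 23 read 8.04, 8.01 and 9.27 and tumour 3 of subline 25 read 7.49, and with all arrays the range of subline means was 1.52.

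On 1434341_x_at the subline means ran from 8.97 in subline 24 to 8.50 in subline 16, a range of 0.48, and single tumours from 9.11 to 8.41. The intraclass correlation was 0.66. The widest gap between sorted tumours was 0.06, so this probe set showed a gradient where 1434340_at showed 2 levels. Over 52 tumours it correlated with 1434340_at at r = 0.80 (rho 0.76). Within the levels of 1434340_at that correlation was 0.44 in the upper and 0.05 in the lower.

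On the brightest probe set, 1424364_a_at, subline 24 read 11.64, 11.79 and 11.50, against 11.28, 11.36 and 11.25 in subline 16, the lowest. The range of subline means was 0.35 or 1.27-fold, and the intraclass correlation was 0.10. In subline 18, the lowest on 1434340_at, the 3 tumours read 11.44, 11.45 and 11.34. Their mean of 11.41 was below the 11.48 of the other sublines, at place 5 from the low end. The correlation of 1424364_a_at with 1434340_at was 0.22 over all tumours, 0.34 in the upper and -0.02 in the lower level. With 1434341_x_at it was 0.61, and within the levels it was higher, 0.88 in the upper and 0.68 in the lower. The suffix x marks probe sets in which some probes also match other sequences and the suffix a those that match several transcripts of a gene. Probe sequences were not used here, and which transcripts each probe set reads was not tested.

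**Figure D1:**
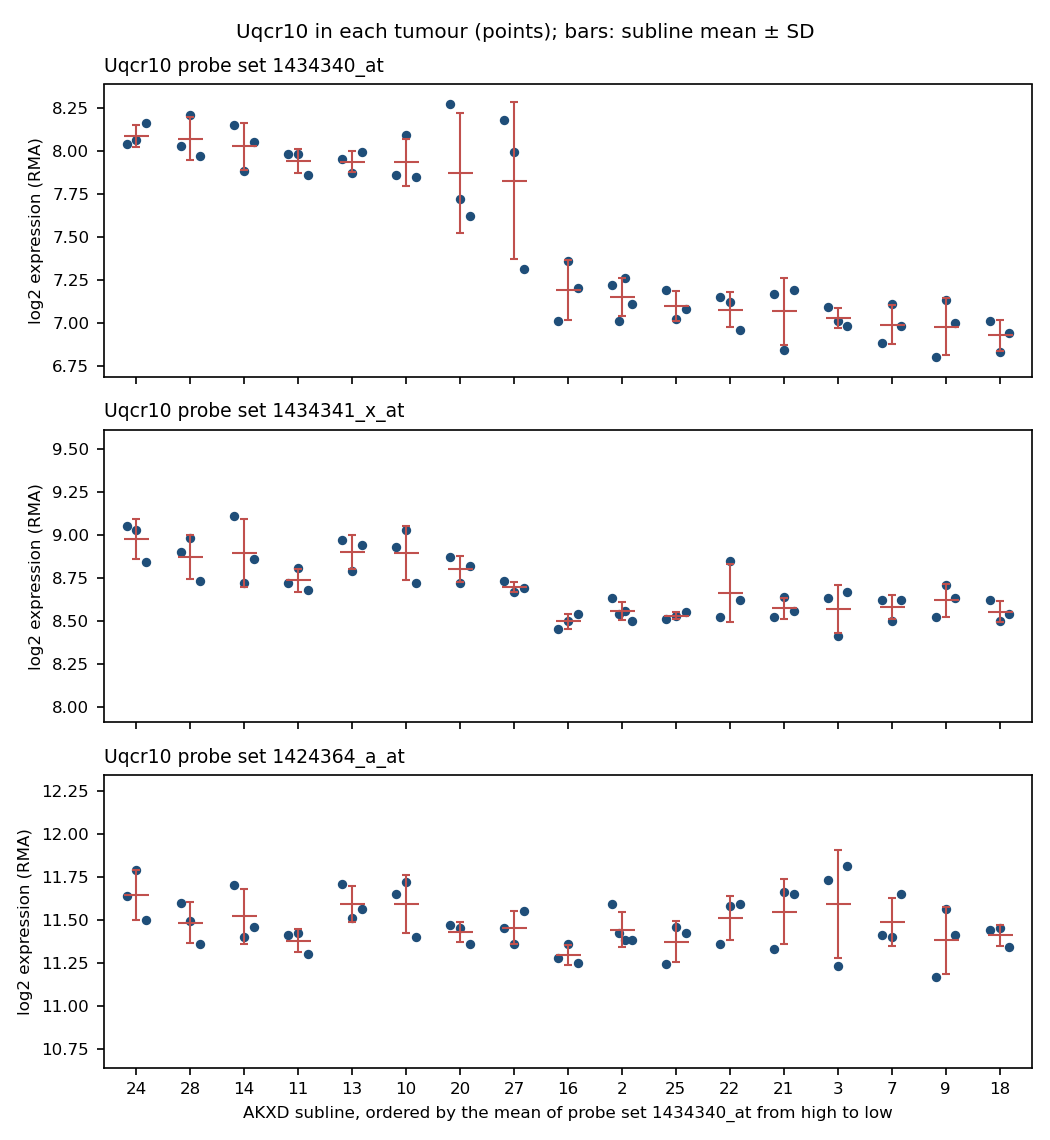
Log2 expression of Uqcr10 on its 3 MOE430A probe sets in the 52 kept tumours. Points are tumours, red bars the subline mean and SD, and sublines are ordered by the mean of 1434340_at from 24 (8.09) to 18 (6.93). All 3 panels span the same log2 width. The top panel shows 2 levels with subline 27 on both, the middle panel a smaller gradient, and the bottom panel subline means within 0.35 of one another.

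The partner subunits were tested among sublines with limma's moderated F test, with p-values adjusted over all probe sets of an array (Benjamini-Hochberg) and an adjusted p under 0.05 called. Of 12 partner probe sets on MOE430A 1 was called, against 1.74% of all 22626 probe sets there. It was the probe set of Uqcrc1. The remaining 11 had adjusted p-values between 0.259 and 0.947. The median range of subline means was 0.35 for the 12 and 0.33 for all probe sets, and the median intraclass correlation 0.06 and 0.05. The single partner probe set on MOE430B was not called (limma adjusted p = 0.535, also above 0.05 unadjusted), against 0.671% of all probe sets there.

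Uqcrc1, core protein 1, had its highest mean in subline 22 and its lowest in subline 21, a difference of 0.64 or 1.56-fold (limma adjusted p = 0.00538). The intraclass correlation was 0.57. The tumours of subline 22 read 11.53, 11.55 and 11.70, against 10.89, 10.87 and 11.10 in subline 21. Subline 13 was next lowest, at 11.09, 10.99 and 11.07, and overlapped with subline 21. In the order of means each neighbouring pair between subline 21 and subline 18 (11.44 ± 0.10, SD, n = 3) differed by less than the larger SD of the pair. Only subline 22 (11.59 ± 0.09) stood above its neighbour by more than that, with ranges that overlapped.

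Each subline was also set against the unweighted mean of the others in the same fit, so that these contrasts share tumours. Over the 12 partner probe sets and 17 sublines 2 such differences were called, against 0.459% of all probe sets and sublines on MOE430A, and both were of Uqcrc1. In subline 21 Uqcrc1 averaged 10.95, against 11.34 in the others, a difference of -0.39 ± 0.07 (SE; limma adjusted p = 0.00203). In that contrast 0.99% of all probe sets were called lower. In subline 22 it averaged 11.59, against 11.30 in the others, a difference of 0.29 ± 0.07 (SE; limma adjusted p = 0.0137), with 0.959% of all probe sets called higher. Subline 13 differed by -0.28 ± 0.07 and was not called (adjusted p = 0.725). On MOE430B 0 of 18 contrasts of the Uqcrh probe set were called by limma, 3 had an unadjusted p under 0.05, and 0.276% of all probe sets and sublines were called.

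Muscle and fat marker scores were higher in subline 22 than in subline 21. The skeletal muscle score, the mean centred log2 value of 12 muscle genes, lay between 0.08 and 2.75 in subline 22, between -2.57 and -0.75 in subline 21, and between -2.63 and 2.57 in the others. The adipocyte score, over 8 measured genes of 10, lay between -0.11 and 1.65 in subline 22 and between -1.003 and -0.70 in subline 21. Subline 13, the next lowest for Uqcrc1, did not share the low scores of subline 21. Its tumours had muscle scores of 0.25, 2.39 and -2.51 and adipocyte scores of 0.24, 0.01 and -0.15. Over 52 tumours Uqcrc1 correlated with the muscle score at 0.41 and with the adipocyte score at 0.48. With the scores of the other cell type lists r lay between 0.14 (B and plasma cells) and 0.47 (brown fat), with mammary epithelium at 0.31. The mammary epithelium score ran from -0.96 to -0.01 in subline 21 and from -0.06 to 0.34 in subline 22. As composition covariates, the scores of adipocytes, skeletal muscle, T cells, and B and plasma cells were used. The scores of the other cell type lists, mammary epithelium among them, were not. With these covariates the difference in subline 21 was -0.36 (limma adjusted p = 0.00816). That in subline 22 was 0.23 and was not called (adjusted p = 0.0863). Uqcrc1 was not called among sublines with all arrays (adjusted p = 0.0995), nor without replicate 1, 2 or 3 (0.546, 0.176 and 0.120), fits in which most sublines have 2 tumours. The call in subline 21 was also lost with all arrays (adjusted p = 0.969), with array weights (0.123) and without replicate 1 (0.109). The call in subline 22 was also lost with all arrays (adjusted p of nearly 1) and without replicate 1, 2 or 3 (0.125, 0.155 and 0.123). Both differences kept their direction in these fits. The cause of the Uqcrc1 differences was not tested.

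**Figure D2:**
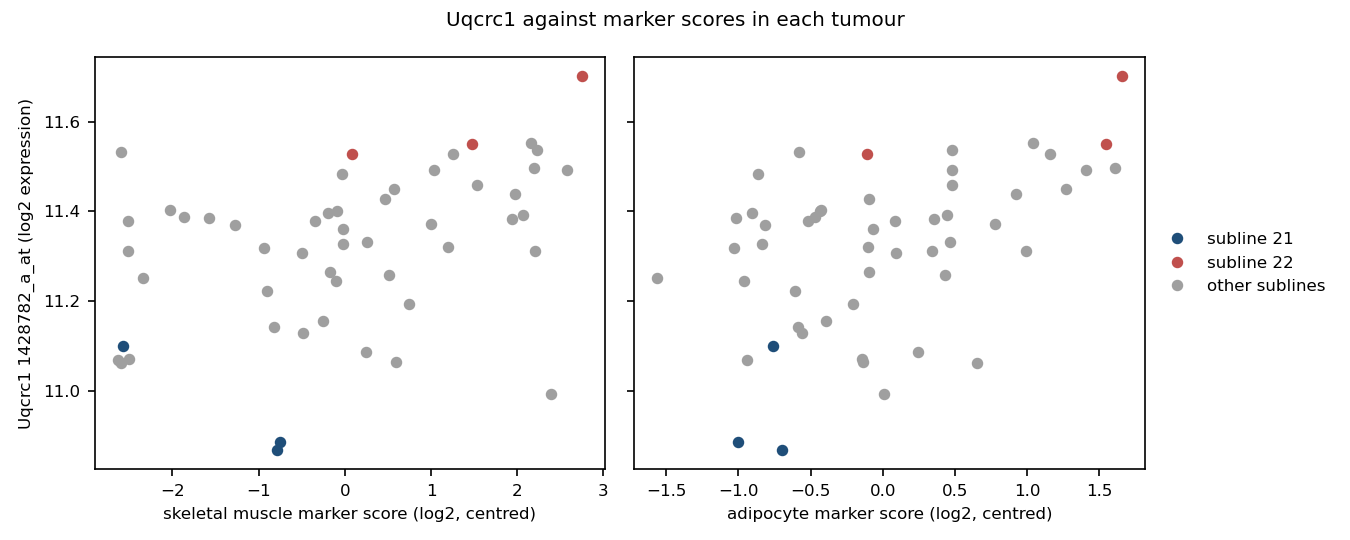
Uqcrc1 (probe set 1428782_a_at, log2 expression) against the skeletal muscle score (left) and the adipocyte score (right) in the 52 kept tumours, with subline 21 in blue, subline 22 in red and the other sublines in grey. Subline 22 lies at the top, at 11.53 or above, and subline 21 at the bottom, at 11.10 or below. Subline 21 has negative scores on both axes, while other sublines cover nearly the whole range of both.

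Uqcrc2, core protein 2, did not pass the test on either of its probe sets (limma adjusted p = 0.929 on both). Its brighter one, 1428631_a_at, was highest in subline 28 with 11.16, 11.38 and 11.33, against 11.17, 11.02 and 10.88 in subline 9, the lowest, and these groups overlapped. Its estimated variance between sublines was 0. Tumour 2 of subline 16 was the lowest on 1435757_a_at, at 9.47, where the next tumour read 9.82.

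The catalytic subunits varied little more. Uqcrfs1, the Rieske protein, was highest in subline 24 (11.59 ± 0.12) and lowest in subline 9 (11.25 ± 0.08, SD, n = 3 each), with an unadjusted p of 0.0284 that did not survive adjustment (limma adjusted p = 0.259). Cyc1, cytochrome c1, ran from 11.59 ± 0.04 in subline 28 to 11.17 ± 0.06 in subline 21 (n = 3 each; limma adjusted p = 0.368). The 3 tumours of subline 28 read 11.59, 11.55 and 11.63, against 11.12, 11.15 and 11.24 in subline 21. These groups did not overlap, but they are the extremes of 17 sublines, and other sublines filled the space between them. Cyc1 in subline 21 against the others differed by -0.25 ± 0.09 (SE; limma adjusted p = 0.0893), and Uqcrfs1 there by -0.20 ± 0.07 (adjusted p = 0.119).

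Among the accessory subunits, Uqcrb had the brightest probe set of the complex, 1455997_a_at, whose 52 tumours lay between 13.05 and 13.51. The highest subline mean was that of subline 22, with 13.25, 13.28 and 13.51, against 13.09, 13.20 and 13.11 in subline 9 (limma adjusted p = 0.506). Its dimmer probe set 1416337_at ranged more widely, by 0.46 between sublines 24 and 11 (adjusted p = 0.430). Uqcrh spanned 10.95 to 11.28 on MOE430A, with a range of subline means of 0.21 (adjusted p = 0.817). Its MOE430B probe set 1453229_s_at spanned 10.38 to 11.50, with 11.30, 11.43 and 11.47 in subline 24, against 11.01 and 10.38 in the 2 kept tumours of subline 11.

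Uqcrq, a small subunit bound to cytochrome b, was read by 4 probe sets, and none was called (limma adjusted p between 0.560 and 0.947). The brightest, 1430326_s_at, with a mean of 10.39, ran from 9.93 to 10.84 and had no variance between sublines beyond that within them. In subline 3 alone it read 10.68, 9.98 and 10.84. The other 3 had means between 7.00 and 7.53, under the median of every array.

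**Figure D3:**
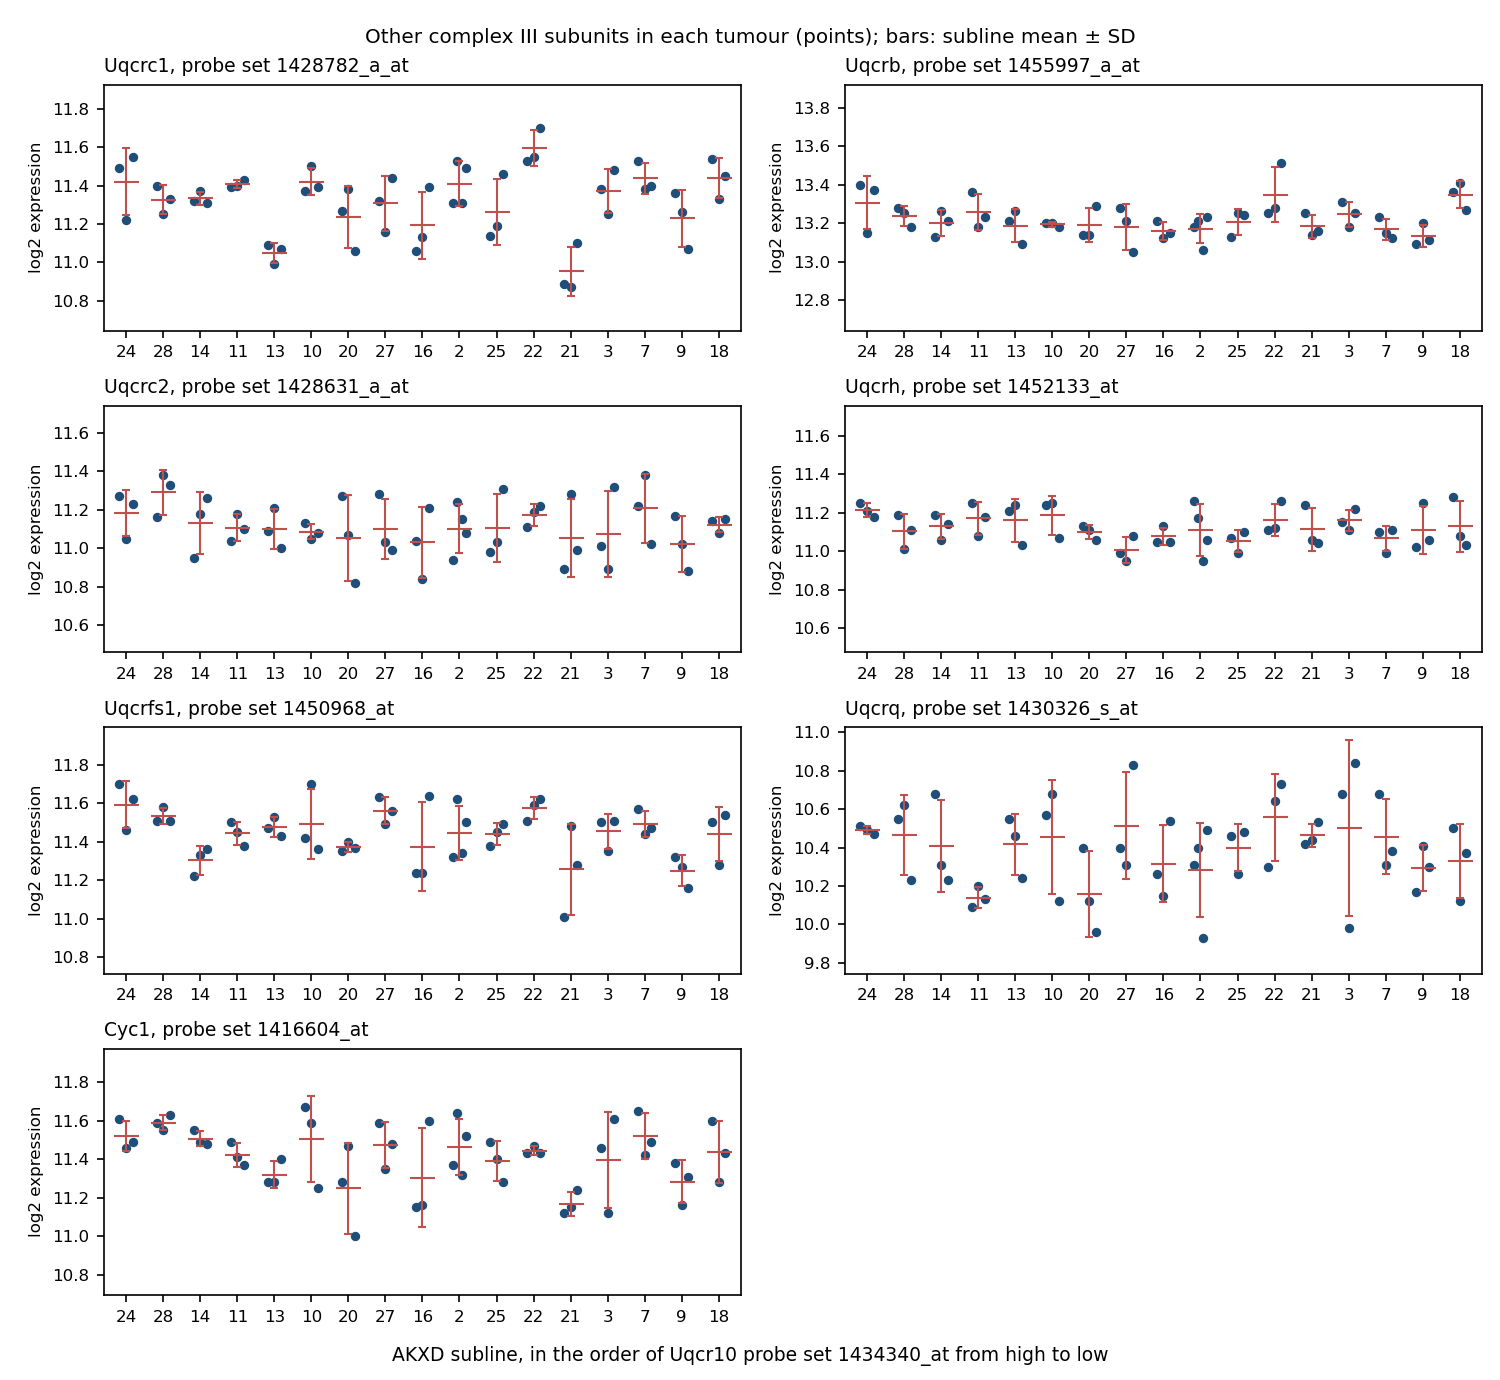
Log2 expression of the brightest MOE430A probe set of each of the 7 partner subunits in the 52 kept tumours, as points with the subline mean and SD in red. Sublines stand in the order of Uqcr10 on 1434340_at, from high (24) to low (18), and all panels span the same log2 width. No panel shows the 2 levels of Uqcr10. In the Uqcrc1 panel subline 22 is highest and sublines 13 and 21 lowest.

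The members were then compared with one another over the 52 tumours, with the brightest probe set of each gene. Correlations are given as a description, because tumours of a subline share genome from the same AKXD line and all values share the array normalization. Of 28 pairs 27 were positive, with a median r of 0.32 and a span from -0.07 to 0.65. For the 21 pairs without Uqcr10 the median was 0.35, and it was 0.34 for deviations from the subline means and 0.44 for the 17 subline means. For the 7 pairs with Uqcr10 it was 0.25.

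Uqcrc1, Uqcrfs1 and Cyc1 were the most alike. Uqcrc1 and Cyc1 correlated at 0.65 (rho 0.62), at 0.58 within sublines and at 0.64 without the 2 tumours farthest from the median. Uqcrfs1 and Cyc1 correlated at 0.62, Uqcrc1 and Uqcrfs1 at 0.58, and Uqcrc2 and Uqcrfs1 at 0.57. Uqcr10 on its brightest probe set was most like Uqcrq on 1430326_s_at, at 0.61, and Uqcrh, at 0.47. With Uqcrc1 and Uqcrc2 it reached 0.07 and 0.08. On 1434340_at, the probe set with 2 levels, the correlations of Uqcr10 with the 7 partners ran from -0.05 with Uqcrc1 to 0.23 with Cyc1. Within its levels the value for Cyc1 was 0.46 in the upper and -0.09 in the lower.

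Probe sets of a gene did not always agree. The 2 of Uqcrc2 correlated at 0.71 and the 2 of Uqcrb at 0.50. The 3 dim probe sets of Uqcrq correlated with one another between 0.50 and 0.62, but with the bright one of the same gene at 0.06, -0.21 and -0.26. They ran opposite to several partners, down to -0.54 between 1452613_at and Uqcrc2 on 1435757_a_at. With quantile normalization the median over the 28 pairs was 0.17, and with all arrays, which include the arrays that stand apart, it was 0.91.

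**Figure D4:**
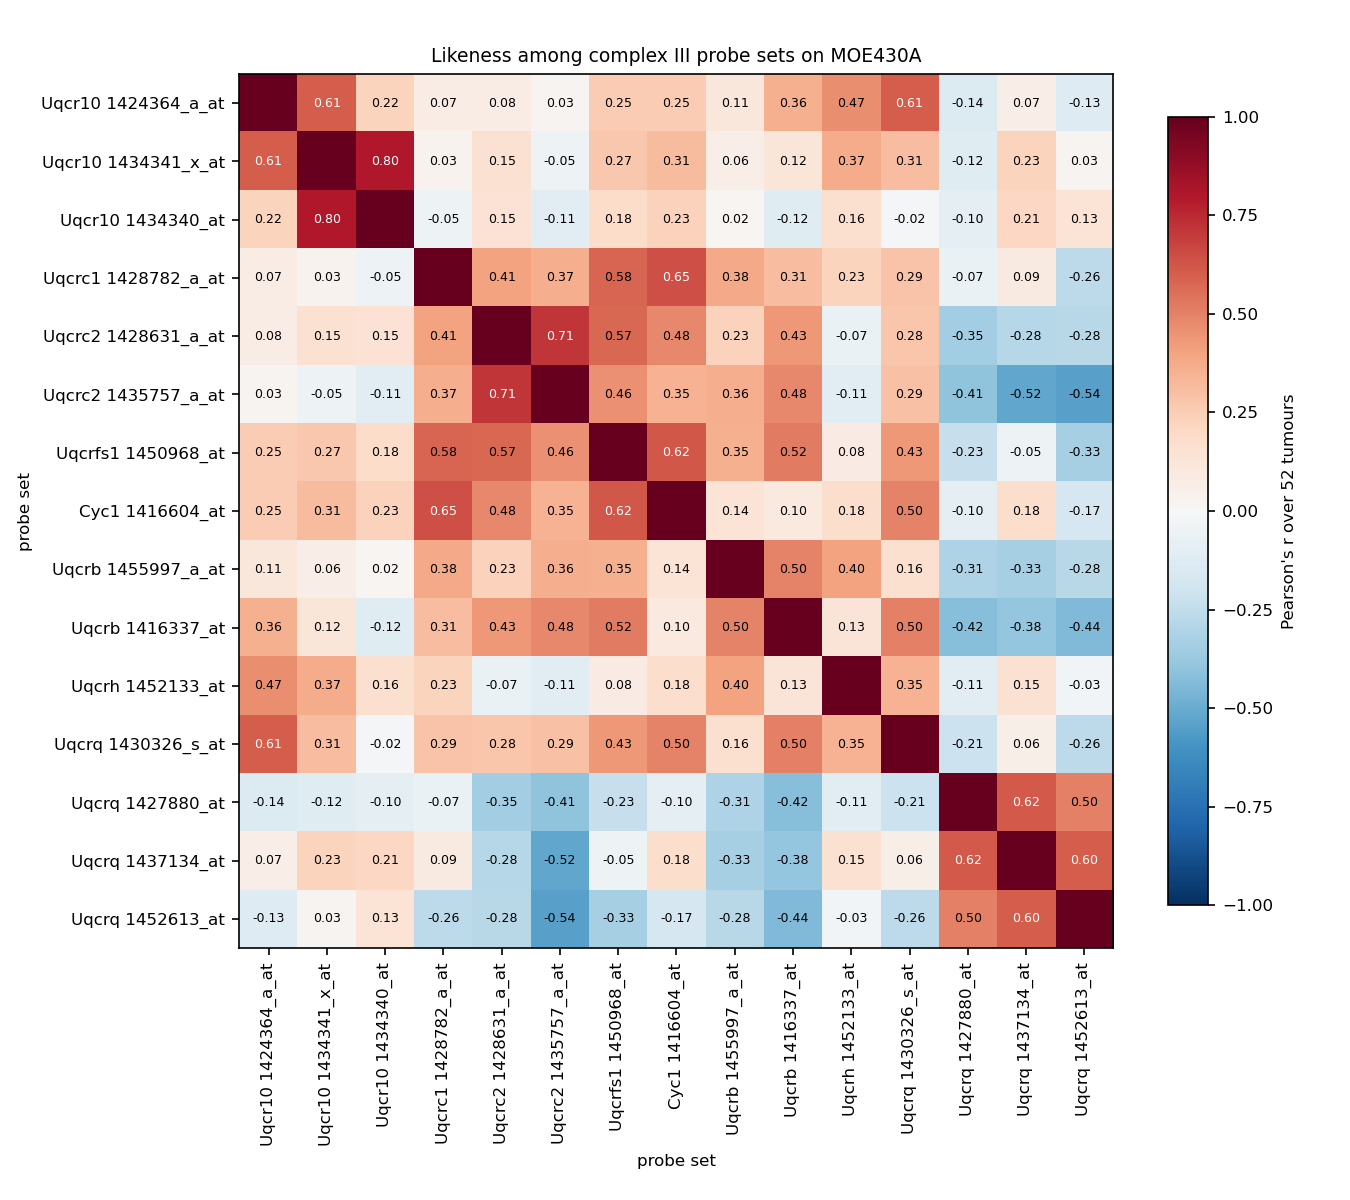
Pearson's r over 52 tumours between the 15 complex III probe sets of MOE430A, ordered by gene and then by brightness, with the value in each square. Red is positive and blue negative. Uqcrc1, Uqcrc2, Uqcrfs1 and Cyc1 form a positive block, 1434340_at of Uqcr10 lies between -0.12 and 0.23 with all other genes, and the 3 dim Uqcrq probe sets are alike and negative with every Uqcrc2 and Uqcrb probe set.

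The mean level of the 7 partners was highest in subline 22, at 0.12 ± 0.09 above the mean of all tumours, followed by subline 24 at 0.10 ± 0.09, and lowest in subline 21, at -0.12 ± 0.05 (SD, n = 3 each). Genes on both sides of complex III in the respiratory chain followed this mean more closely than the median probe set, whose r with it was -0.06. Of all 22626 probe sets 9753 had a positive r. Each list gene was read on its brightest probe set, while the comparison was with all probe sets, dim ones included. These correlations were not recomputed with quantile normalization. The median r was 0.59 for complex I, which supplies ubiquinol, with 32 of 32 measured genes positive. It was 0.60 for the other ubiquinol donors and cytochrome c (12 of 13 positive), 0.56 for complex IV, which oxidises cytochrome c (10 of 10), and 0.48 for the ATP synthase (15 of 15). Ubiquinone synthesis genes had a median of 0.49 (8 of 9), other complex III genes and assembly factors 0.33 (8 of 9), and regulators of mitochondrial biogenesis 0.13 (10 of 12). The partner mean also correlated with the skeletal muscle score at 0.53, with a brown fat score at 0.59 and with the adipocyte score at 0.47, against 0.35 for mammary epithelium. The genes of the brown fat score were Ucp1, Cidea, Cox7a1, Cox8b, Ppara and Elovl3. The part of muscle and fat in these correlations was not tested.

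The same pathways were tested among sublines. On MOE430A 3 of 188 probe sets of the 7 pathway lists were called, close to the 1.74% of all probe sets. They were Gpd2, Ndufa12 and Atp5a1, and each was highest in subline 22. Subline 22 stood apart in many genes, with 217 of all 22626 probe sets called higher and 579 lower than in the others. Gpd2, the mitochondrial glycerol-3-phosphate dehydrogenase that reduces ubiquinone, averaged 8.91 in subline 22 and 8.19 in subline 20, a 1.64-fold difference (limma adjusted p = 0.0395). Ndufa12, an accessory subunit of complex I, averaged 11.01 in subline 22 and 10.24 in subline 9 on 1455806_x_at (adjusted p = 0.0217), and Atp5a1, the alpha subunit of the ATP synthase, 7.21 in subline 22 and 6.27 in subline 28 on 1420037_at (adjusted p = 0.00606). Neither of those is the brightest probe set of its gene.

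In the remaining lists the smallest p-values belonged to genes that did not pass. For comparison, 3431 of all 22626 probe sets of MOE430A were under 0.05 unadjusted in the same test. Of other complex III genes 0 of 14 probe sets were called by limma, with 2 under 0.05 unadjusted. These were Uqcc3, an assembly factor that ranged by 0.39 (adjusted p = 0.180), and Pmpca, a subunit of the mitochondrial processing peptidase (adjusted p = 0.235). Ttc19, which is needed for turnover of the Rieske protein, had an adjusted p of 0.473. Of the donors, Sdhb and Etfb had adjusted p-values of 0.317 and 0.398, and of complex I Ndufs8 and Ndufa13 had 0.213 and 0.223. Ubiquinone synthesis (13 probe sets) and complex IV (24) had 0 calls by limma and 0 under 0.05 unadjusted. Coq5, Coq3 and Coq7 led the first with adjusted p between 0.462 and 0.483, and Cox6a1, Cox5b and Cox6b1 the second with 0.337 to 0.405. Atp5d and Atp5h of the ATP synthase had 0.159 and 0.234. Of 25 probe sets of biogenesis regulators 0 were called and 4 were under 0.05 unadjusted, led by Yy1, Gabpa and Esrra with adjusted p between 0.142 and 0.235. Mitochondrially encoded cytochrome b was not analysed here. On MOE430B, where 0.671% of all probe sets were called, 1 of 35 was, a dim one of Sdha with a mean of 5.50, named because it was the only call (limma adjusted p = 0.000457).

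Which genes shared the pattern of Uqcr10 on 1434340_at was described over all probe sets with a single symbol. Because the tumours lie in 2 levels, the correlation within each level is given beside the overall one. On MOE430A the most alike was Abhd1, an abhydrolase domain protein, at r = 0.60, with 0.35 in the upper and 0.12 in the lower level. Rpia, ribose 5-phosphate isomerase of the pentose phosphate pathway, followed at 0.59, with 0.08 and -0.04. Tmem53, a transmembrane protein, ran opposite at -0.59, with 0.04 and -0.16. Tmsb4x, which binds actin monomers, reached -0.55, Shf -0.54, and Slc4a2, an anion exchanger, -0.54. Their correlations within levels lay between -0.37 and -0.11. None of these 6 genes lies on chromosome 11.

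On MOE430B, over the 51 tumours kept on both types, the most alike were Tns3, a tensin of focal adhesions, at 0.60, Rnf213 at -0.59 and Xaf1 at -0.57. Within levels Tns3 had 0.18 in the upper and -0.11 in the lower, Rnf213 0.02 and -0.29, and Xaf1 -0.22 and 0.00054. All 3 lie on chromosome 11, Tns3 3.73 Mb from Uqcr10, Xaf1 67.6 Mb and Rnf213 115 Mb away. Of the 50 most alike probe sets 6 were on chromosome 11 on MOE430A and 7 on MOE430B, where 8.40% and 7.06% of all placed probe sets are. Along the chromosome the median size of r was 0.10 for the 97 MOE430A probe sets within 5 Mb and 0.10 for the 18639 on other chromosomes. A size of 0.5 or more was reached by 1 of the 97, a probe set of Nf2, and by 11 of the 18639. Uqcrq, on the same chromosome, lay between -0.10 and 0.21 on its 4 probe sets.

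**Figure D5:**
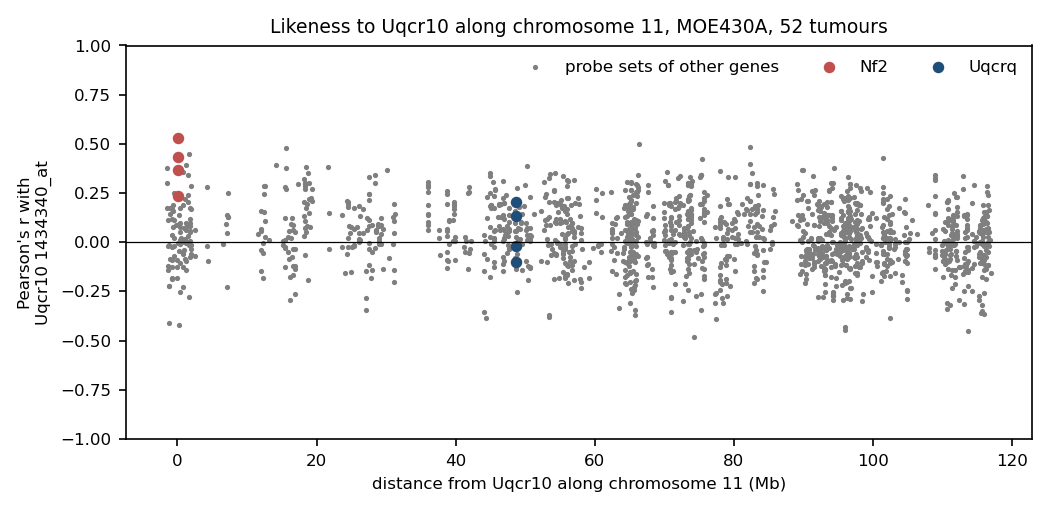
Pearson's r over 52 tumours between Uqcr10 on 1434340_at and each other MOE430A probe set of chromosome 11, by distance from Uqcr10 in Mb. The 4 probe sets of Nf2 (red), near distance 0, lie between 0.24 and 0.53, and the 4 of Uqcrq (blue), at 48.7 Mb, between -0.10 and 0.21. No rise of the whole cloud is seen near Uqcr10.

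The nearest genes were examined directly. Zmat5, a zinc finger protein, starts 311 bases from Uqcr10 and is transcribed the other way, so the upstream window of Uqcr10 shown above overlaps that of Zmat5 by 189 bases. Zmat5 did not pass the test (limma adjusted p = 0.857), and its r with 1434340_at was -0.12. Ascc2, on the other side, did not pass on either probe set (adjusted p = 0.864 and 0.594). Over the 10 genes on each side 37 probe sets were measured. On MOE430A 1 of 22 was called, where 1.74% of all were. Unadjusted, 7 of the 22 were under 0.05, against 3431 of all 22626 probe sets. On MOE430B 0 of 15 were called by limma, where 0.671% of all were. Unadjusted, 4 of the 15 were under 0.05, against 2477 of all 22511 probe sets. The call on MOE430A was of Nf2, the tumour suppressor merlin, whose lower end lies 55.7 kb from that of Uqcr10. On 1451829_a_at it averaged 7.65 in subline 20 and 7.22 in subline 22, a 1.34-fold difference (adjusted p = 0.0355). The other 3 Nf2 probe sets did not pass (adjusted p = 0.0988, 0.145 and 0.204), and the call was lost when the values were centred on the array median.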

How the data were processed

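RNA of 56 tumours was hybridised to MOE430A and MOE430B, 112 arrays in all. The deposited values are log2 expression made by RMA, per the submitters' processing notes, and the sources used here give no version, probe definition or genome build for it. The 2 tables were tested separately and used as deposited. Control probe sets (64 on each) were set aside. Gene symbols are those of the platform annotation, updated with RefSeq GRCm38.p6. Precision is limited by the number of arrays.

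One mean per subline was fitted with limma 3.58.1 in R 4.3.3 (lmFit, eBayes, moderated F test), adjusted within each array over every probe set, and each subline was contrasted with the unweighted mean of the others. Correlations were computed with numpy 2.4.6 in Python 3.11.15. The fit was tested on simulated data. The members, the gene lists (7 of pathways, 9 of cell types) and the tests were chosen with earlier results of these data known. Named genes are all members, up to 3 genes of each pathway list with the smallest p, the 6 genes on MOE430A and 3 on MOE430B most like 1434340_at, and called neighbours. The 9 marker lists were mammary epithelium, adipocytes, brown fat, skeletal muscle, T cells, B and plasma cells, macrophages, endothelium and fibroblasts. Across them limma called 0 of 115 probe sets on MOE430A (6 under 0.05 unadjusted) and 0 of 16 on MOE430B (1 unadjusted). Over all probe sets 3431 of 22626 on MOE430A and 2477 of 22511 on MOE430B were under 0.05 unadjusted. Alternatives were all arrays, a replicate block, dropping dim probe sets, quantile normalization, median centring, array weights, a trended robust prior, composition covariates, leaving out each replicate, and the mean over the probe sets of a gene. Deviations of same-numbered tumours of different sublines had a median correlation of 0.000675 on MOE430A and 0.0156 on MOE430B. For tumours of different numbers it was -0.00298 and -0.0127. These medians cannot show whether the numbers pair some of the tumours. No columns of other series were present.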

Additional observations from a re-analysis of the deposited data

Results flagged for a closer look

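Of 16 groups of 4 tumours, the 16 probe sets in subline 2, 1 held a tumour far from the others. On the brightest Uqcr10 probe set, 1424364_a_at, tumour 1 of subline 2 read 11.59, against 11.38 to 11.42 in tumours 2 to 4 of that subline. Its distance to the nearest of them was 0.836 of the range of the group. About 1 group in 20 would be picked out by chance.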

How the results depend on the processing

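With all arrays, which include those that stand apart, 0 partner probe sets were called among sublines on MOE430A (1 with the kept arrays). Partner calls in single sublines were then 8 on MOE430A (2 with the kept arrays) and 1 on MOE430B (0). Over all probe sets and sublines 15709 of 407268 such differences were called in that fit on MOE430A, and 2986 of 405198 on MOE430B. Neighbour calls were 2 (1), and pathway calls on MOE430B were 0 (1). Among sublines 889 of all 22626 probe sets were then called on MOE430A and 30 of 22511 on MOE430B. The Uqcr10 ranges were 1.52 on 1434340_at and 1.81 on 1424364_a_at, and the median r between members was 0.91. Array weights called 9234 probe sets in all on MOE430A (393 without) and 4798 on MOE430B (151 without). With them partner calls were 5 on MOE430A and 1 on MOE430B, and single-subline partner calls 9 and 1. Single-subline calls over all probe sets were 15691 of 384642 on MOE430A and 9276 of 405198 on MOE430B. Pathway calls were 67 and 12, and neighbour calls 9 and 6 (1 and 0 without array weights). The call of Uqcrc1 in subline 21 was lost (limma adjusted p = 0.123). With quantile normalization single-subline partner calls were 4 on MOE430A, against 1993 of 384642 over all probe sets. The median r was then 0.17. The mean over the probe sets of a gene gave a median r of 0.23. Composition covariates left 1 single-subline partner call on MOE430A and gave 1 on MOE430B, against 1453 of 384642 and 2212 of 405198 over all probe sets. Neighbour calls were 0 with median centring, where 408 of 22626 probe sets were called in all, and 0 without dim probe sets (379 of 11313). Without dim probe sets pathway calls on MOE430B were also 0 (156 of 11256 in all). Leaving out a replicate number gave 0 to 1 partner calls, 0 to 2 single-subline calls, 0 to 2 pathway calls and 0 to 1 neighbour calls on MOE430A, and 0 to 1 pathway calls on MOE430B. It gave a range of 0.35 to 0.51 on 1424364_a_at (the highest without replicate 2) and a median r of 0.28 to 0.35. Most sublines then have 2 tumours, and in all MOE430A fits without replicate 1, 2 or 3 the calls fell to 14, 92 and 34 of 22626. Single-subline calls over all probe sets were 525, 1295 and 825 of 384642 in those fits, and 1676 without replicate 4. The cause of the other changes was not tested. With the replicate number as a block partner calls stayed at 1 and single-subline calls at 2, and 403 probe sets were called in all on MOE430A and 125 on MOE430B. Tumours matched best with their own number in 14 of 50 cases on MOE430A and 21 of 51 on MOE430B. The differences of Uqcrc1 in sublines 21 and 22 kept their direction in the 12 alternatives run for them.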
